A study of Zea mays with 18 samples.

Results

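Nitrate reductase and nitrite reductase carry out the first pair of steps by which a plant turns NO3- into an amino group. The genes for both enzymes were described in maize roots that had been starved of N and then supplied with NO3- or not. Members were all genes of the deposited table whose protein description names nitrate reductase or ferredoxin--nitrite reductase, which gave 16 of 47334 genes, 11 described as nitrate reductase and 5 as nitrite reductase. RNA came from roots of wild type (WT) plants and of the mutants zmnrt1.1b and zmnlp3.1, in 18 libraries or 3 a group. Seedlings of all groups were raised on complete nutrients for 10 days, kept free of N for 4 days and then given 5 mM KCl or 5 mM KNO3 for 2 h. KCl supplies the cation without NO3-, so KNO3 against KCl within a genotype is the NO3- response. The mutants were described as CRISPR/Cas9 loss-of-function alleles in the inbred line ND101, one in the NO3- transporter ZmNRT1.1B and the other in ZmNLP3.1, which encodes a NIN-like transcription factor. The sample labels call both of them knockdowns, the line of each mutant that was sequenced is not given in the sources used here, and neither mutated gene could be matched to an ID, so the labels were not checked on the targeted genes.

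Nitrate reductase reduces NO3- to nitrite in the cytosol with electrons from NADH or NADPH, which pass through FAD and heme to a molybdenum cofactor. Nitrite is toxic and enters the plastid, where nitrite reductase, an enzyme with siroheme and an iron-sulphur cluster, reduces it to ammonium with electrons from ferredoxin. In roots that ferredoxin is reduced from NADPH of the oxidative pentose phosphate pathway, and genes of the whole chain are textbook examples of rapid induction by NO3-. The table pairs its IDs with protein descriptions and not with the gene names of the study, so members are given by ID, and no sequence is shown because none was at hand for these IDs.

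Values were FPKM, the fragments of a gene relative to its length and to the library's depth, and each library held 16955904 to 19116969 reads recovered from them. Levels of different genes are compared here as FPKM, which is per length, and differences between groups are on the scale of log2(FPKM + 0.1), which understates the change of weak genes. Of the members, 9 reached 1 FPKM in at least 3 libraries and were tested among 26011 genes, 5 nitrate reductases and 4 nitrite reductases. The other 7 were not tested, and 5 of these had no read in any library. Root markers (14 genes for cortical cell-delineating and Casparian strip proteins, 12 of them tested) summed to 1490 to 6828 FPKM, against 15.6 to 72.6 FPKM for 38 genes described by the chlorophyll a-b binding protein or the small Rubisco subunit, 7 of which were at 0 throughout. The root marker sum moved with the groups, from 2858 to 4971 FPKM under KCl to 1591 to 2294 FPKM under KNO3 in WT, from 1490 to 3024 FPKM to 3219 to 4802 FPKM in zmnlp3.1, and in zmnrt1.1b from 4534 to 6828 FPKM to 1591 to 4569 FPKM. The leaf marker sum went from 67.0 to 72.6 FPKM under KCl to 25.1 to 29.6 FPKM under KNO3 in zmnrt1.1b, from 15.6 to 19.4 FPKM to 44.6 to 49.4 FPKM in zmnlp3.1, and was 22.7 to 29.7 FPKM and 23.4 to 27.8 FPKM in WT. The part of both sums in the results was not tested. In whole roots, fewer cells of a type and less RNA per cell cannot be told apart. The labels do not say that the replicates were separate cultures, so p-values measure only the spread between these samples, which may be technical.

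A pair of libraries stood apart from their groups. In zmnlp3.1 KCl replicate 4 the 6 members that responded in WT had a median 1.25 below the other libraries of its group on the log2 scale, against -0.19 for 710 other genes that rose in WT. In zmnrt1.1b KNO3 replicate 2 the same median was 0.69 above its group, and this library had the lowest mean correlation with its group (0.941, against up to 0.971 elsewhere). Results that rest on either are given with and without it below.

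Zm00001d018206, described as nitrate reductase [NAD(P)H], was the most abundant nitrate reductase. It lies on chromosome 5 (216589277 to 216592402, minus strand, B73 RefGen_v4) and its listed domains are the molybdopterin binding, Mo-co dimerisation and NAD-binding domains. Its level in the WT libraries was 59.7, 48.3 and 73.5 FPKM under KCl and 747, 1016 and 839 FPKM under KNO3. In zmnrt1.1b it was 58.8, 58.1 and 51.0 FPKM under KCl and 638, 417 and 423 FPKM under KNO3. The zmnlp3.1 libraries had 35.3, 36.6 and 19.4 FPKM under KCl and 148, 129.8 and 103 FPKM under KNO3. Thus KNO3 and KCl did not overlap in any genotype, and under KNO3 the 3 genotypes did not overlap each other, with WT highest and zmnlp3.1 lowest. The ratio of the group means was 14.3 in WT, against 8.80 in zmnrt1.1b and 4.17 for zmnlp3.1.

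Zm00001d049995, described as nitrate reductase [NADH] 1, lies on chromosome 4 (58642687 to 58647338, plus strand). Its level in WT was 35.4, 38.0 and 41.2 FPKM under KCl and 256, 349 and 281 FPKM under KNO3. Libraries of zmnrt1.1b had 32.1, 30.8 and 32.3 FPKM under KCl and 167, 91.7 and 103 FPKM under KNO3. Those of zmnlp3.1 had 36.7, 26.9 and 18.8 FPKM under KCl and 92.4, 79.1 and 67.1 FPKM under KNO3. Both mutants lay below every WT library under KNO3 but overlapped each other there.

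Zm00001d031769, also described as nitrate reductase [NADH] 1, lies on chromosome 1 (201195222 to 201199817, minus strand). In WT it had 14.2, 13.9 and 20.8 FPKM under KCl and 51.0, 59.3 and 48.7 FPKM under KNO3. In zmnrt1.1b it had 19.8, 19.9 and 17.6 FPKM under KCl and 55.9, 30.9 and 30.0 FPKM under KNO3. In zmnlp3.1 the levels were 13.1, 10.9 and 5.08 FPKM under KCl and 17.7, 14.2 and 12.04 FPKM under KNO3. The zmnlp3.1 libraries of both treatments overlapped, and the WT and zmnrt1.1b libraries overlapped under KNO3 since zmnrt1.1b replicate 2 was as high as WT.

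Zm00001d018161 was the dominant nitrite reductase gene and the most abundant member. It lies on chromosome 5 (215727084 to 215730071, minus strand), 859.2 kb and 43 genes away from the nitrate reductase gene Zm00001d018206, and lists both domains that define the enzyme, the ferredoxin-like domain and the 4Fe-4S domain. Its WT levels were 237, 202 and 242 FPKM under KCl and 1478, 1655 and 1414 FPKM under KNO3, where it ranked 13 to 14 among all genes by FPKM. In zmnrt1.1b it had 210.2, 171 and 152 FPKM under KCl and 1115, 697 and 801 FPKM under KNO3. In zmnlp3.1 it had 202, 164 and 59.5 FPKM under KCl and 683, 662 and 485 FPKM under KNO3. The 3 genotypes did not overlap under KNO3, in the same order as for Zm00001d018206, but the mutants were separated only by 683 against 697 FPKM. Their difference there was -0.50 (limma adjusted p = 0.309), which did not pass. How many of all tested genes have groups without overlap was not counted, so such statements are descriptions.

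A second nitrite reductase locus on chromosome 4 holds a pair of overlapping entries on the plus strand. They are gene_Zm00001d052164 (181552538 to 181556093), for which no domain is listed, and gene_Zm00001d052165 (181552730 to 181556339), which has both nitrite reductase domains. They share 3364 bases, so their reads may have been split between them and their separate levels are uncertain. In WT gene_Zm00001d052164 had 8.62, 7.52 and 8.84 FPKM under KCl and 64.3, 79.5 and 61.0 FPKM under KNO3. It had 8.60, 6.74 and 9.76 FPKM under KCl and 37.8, 26.3 and 38.3 FPKM under KNO3 in zmnrt1.1b, and 7.73, 7.70 and 2.31 FPKM and 35.5, 23.7 and 19.3 FPKM in zmnlp3.1. Its partner gene_Zm00001d052165 had 0.196 to 0.488 FPKM under KCl and 2.92 to 3.68 FPKM under KNO3 in WT, and 0.102 to 0.475 and 1.18 to 2.44 FPKM in zmnrt1.1b. Its zmnlp3.1 means were 0.364 ± 0.234 FPKM under KCl and 2.38 ± 0.769 FPKM under KNO3 (SD, n = 3). This entry passed the filter on low values only through KNO3 libraries, so its response had to be positive in at least part of them.

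**Figure D1:**
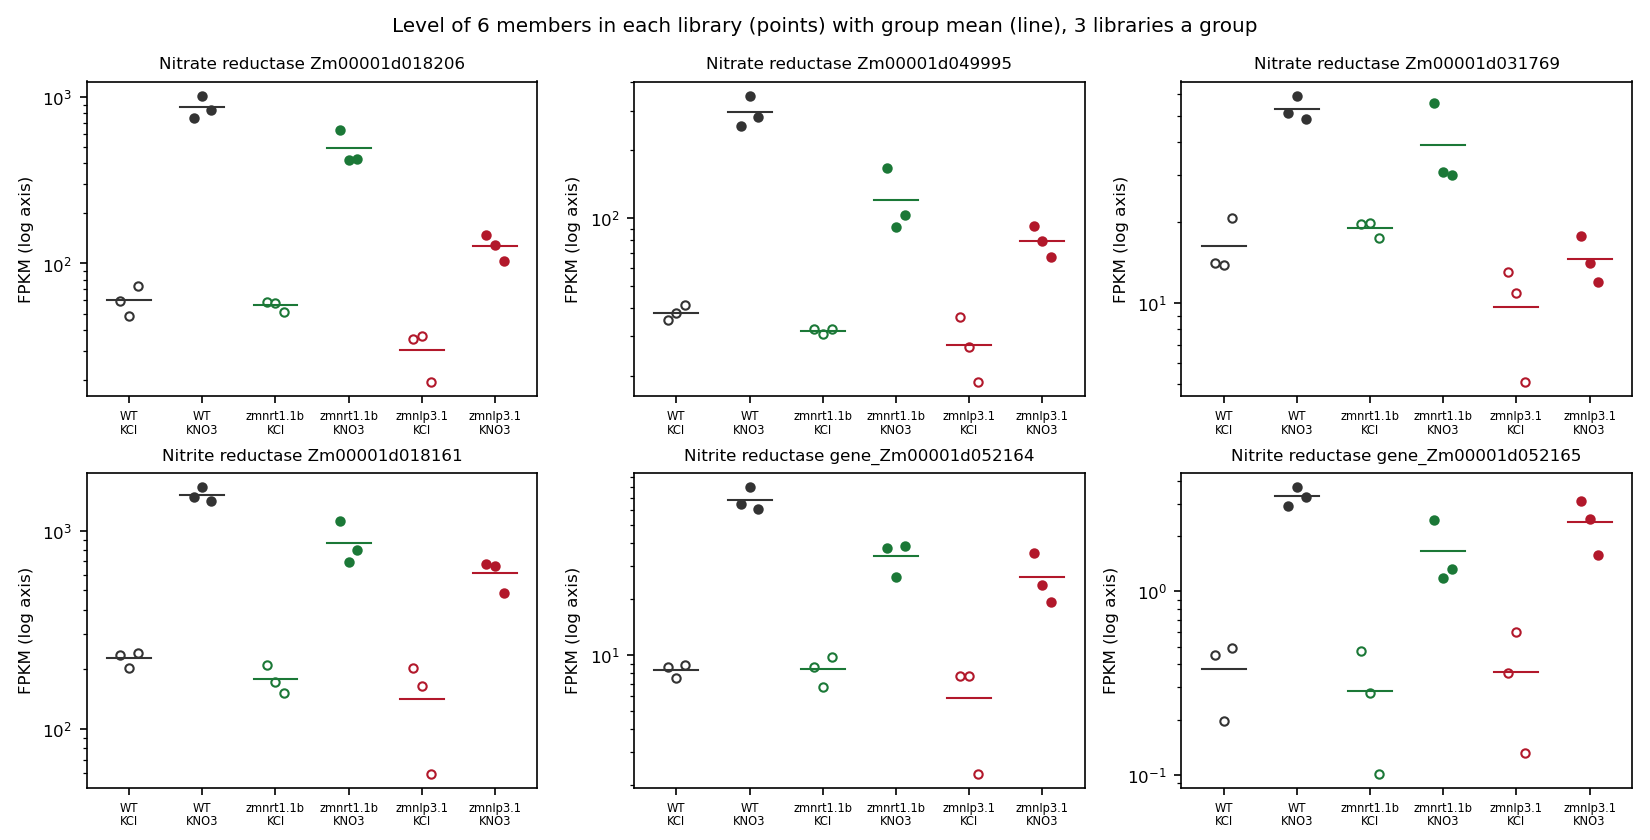
FPKM (log axis) of the 3 nitrate reductase and 3 nitrite reductase entries that responded in WT, by genotype and treatment. Points are libraries, open under KCl and filled under KNO3, and lines are group means (3 libraries a group). WT under KNO3 has the highest group mean in every panel, and the lowest KCl point of zmnlp3.1 in every panel but that of gene_Zm00001d052165 lies below all other libraries of the same gene.

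In WT, 6 of the 9 tested members rose past both thresholds, an adjusted p under 0.05 and a log2 difference over 1, against 2.75% of all tested genes, and none fell (2.88% of all genes). These 6 include gene_Zm00001d052165, which was tested only because its KNO3 libraries reached 1 FPKM. It also shares 3364 bases with gene_Zm00001d052164, so it adds no independent gene to the count. Zm00001d018206 rose by 3.85 (SE 0.24, limma adjusted p = 5.18e-08), the 14th largest increase among all tested genes. Increases of 2.94 (SE 0.23, limma adjusted p = 4.60e-07) and 1.72 (SE 0.29, limma adjusted p = 0.000847) were found for the nitrate reductases Zm00001d049995 and Zm00001d031769. The nitrite reductases rose by 2.74 (SE 0.32, limma adjusted p = 3.23e-05) for Zm00001d018161, by 3.01 (SE 0.35, limma adjusted p = 2.51e-05) for gene_Zm00001d052164 and by 2.88 (SE 0.47, limma adjusted p = 0.000522) for gene_Zm00001d052165. With a pseudocount of 1 FPKM the value for gene_Zm00001d052165 was 1.64. The median over the 9 members was 2.74, against -0.00 over all tested genes. Together the 16 members took 0.0832 to 0.0973% of all reads in WT under KCl and 0.557 to 0.652% under KNO3.

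Both mutants kept an induction of most of these genes. The counts below again include gene_Zm00001d052165, which was tested only through its KNO3 libraries and overlaps gene_Zm00001d052164. In zmnrt1.1b 5 of 9 rose (2.03% of all genes) and none fell (2.62%), with increases of 3.11 for Zm00001d018206, 1.87 for Zm00001d049995, 2.28 for Zm00001d018161, 2.01 for gene_Zm00001d052164 and 2.24 for gene_Zm00001d052165. For Zm00001d031769 the difference was 0.97 (limma adjusted p = 0.0370), just under the fold threshold, and without zmnrt1.1b KNO3 replicate 5 it was 1.12 and passed. Without zmnrt1.1b KNO3 replicate 2, one of the libraries that stood apart, it was 0.67 (limma adjusted p = 0.139). In zmnlp3.1 the same 5 members rose (1.74% of all genes) and none fell (2.29%), by 2.10 for Zm00001d018206, 1.57 for Zm00001d049995, 2.26 for Zm00001d018161, 2.27 for gene_Zm00001d052164 and 2.51 for gene_Zm00001d052165. The zmnlp3.1 difference of Zm00001d031769 was 0.68 (limma adjusted p = 0.136), and without zmnlp3.1 KCl replicate 4 it was 0.27. Without that library the increases of Zm00001d018161 and gene_Zm00001d052164 in zmnlp3.1 were 1.73 and 1.70 and still passed. When only the libraries of both zmnlp3.1 groups were fitted, gene_Zm00001d052164 no longer passed (limma adjusted p = 0.0536).

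**Figure D2:**
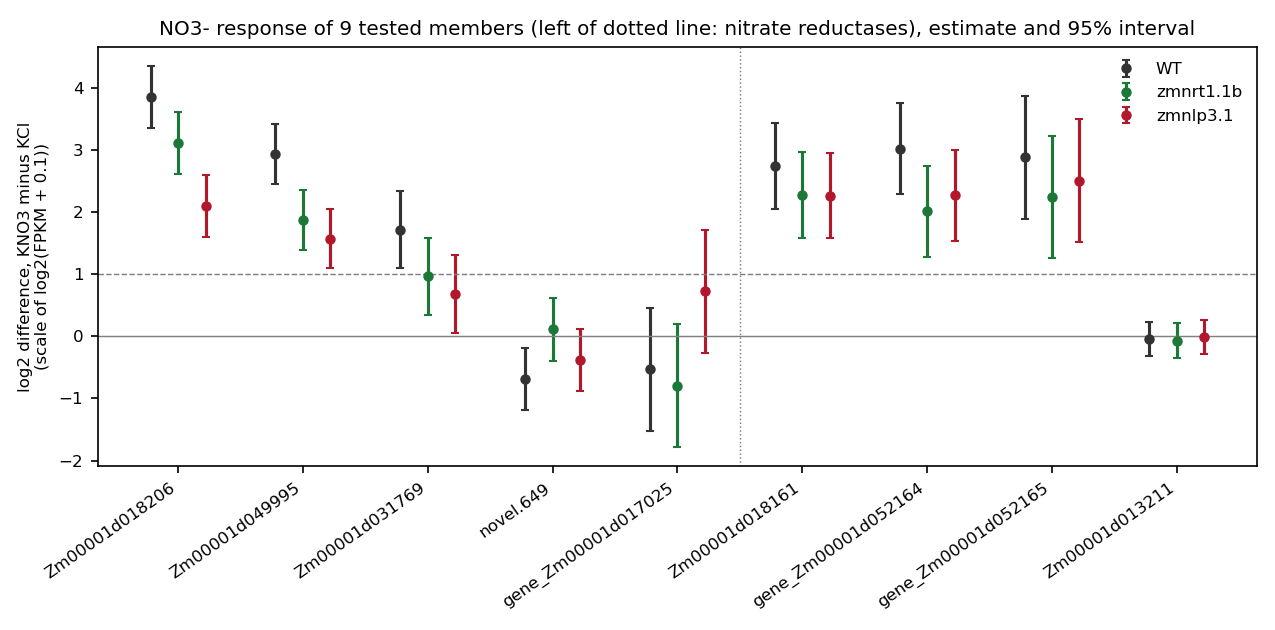
NO3- response (log2 difference of KNO3 minus KCl, on log2(FPKM + 0.1)) of the 9 tested members in WT, zmnrt1.1b and zmnlp3.1, with 95% intervals from the limma fit. The dotted line separates nitrate reductases (left, with the entry on chromosome 2 as the fourth) from nitrite reductases and the dashed line marks the fold threshold of 1. For the 3 leading nitrate reductases WT lies highest and zmnlp3.1 lowest, from 3.85 to 2.10 for Zm00001d018206. The intervals of the 3 genotypes overlap for each nitrite reductase and for each nitrate reductase but Zm00001d018206 and Zm00001d049995. For Zm00001d018206 those of WT and zmnrt1.1b overlap, and for Zm00001d049995 those of both mutants.

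The remaining tested members did not pass in any genotype. They were an entry on chromosome 2 outside the annotation (5801861 to 5805823, plus strand), described as nitrate reductase [NADH] with an FAD-binding domain, gene_Zm00001d017025 on chromosome 5, described as nitrate reductase [NADH] 3, and Zm00001d013211 on chromosome 5, a nitrite reductase by description with a length of 7990 bases and no listed domain. In WT the entry on chromosome 2 had 5.12, 5.96 and 4.84 FPKM under KCl and 2.82, 3.75 and 3.26 FPKM under KNO3. These groups did not overlap, but the log2 difference of -0.68 (SE 0.24, limma adjusted p = 0.0712) missed the threshold. gene_Zm00001d017025 stayed between 0.289 and 1.77 FPKM over all 18 libraries, and Zm00001d013211 between 13.9 and 21.2 FPKM. The WT difference of the latter was -0.04 (95% interval -0.32 to 0.24), which leaves out a change of the size seen for the other nitrite reductases. Between zmnrt1.1b and WT under KNO3 the difference of the entry on chromosome 2 was 0.65, which did not pass except without zmnrt1.1b KNO3 replicate 4 (0.89, limma adjusted p = 0.0209), and that of Zm00001d013211 was 0.31, which did not pass except where zmnrt1.1b KNO3 replicate 2 was left out (0.48, limma adjusted p = 0.00675).

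Among members under the filter, Zm00001d052139 followed the same pattern at a far lower level. It is described as nitrate reductase [NAD(P)H], lies on chromosome 4 (180632525 to 180635840, plus strand) 916.7 kb and 18 genes from the nitrite reductase gene_Zm00001d052164, and lists the same 3 domains as Zm00001d018206. Reads per WT library numbered 0, 2 and 1 under KCl and 51, 22 and 51 under KNO3. Reads of zmnrt1.1b numbered 0 in each KCl library and 9, 12 and 3 under KNO3, and those of zmnlp3.1 were 0 in each KCl library and 2, 3 and 3 under KNO3. The share of reads in WT was 41.0 times as high under KNO3 as under KCl (95% interval 13.7 to 202, exact, counting error only). In zmnrt1.1b it was at least 8.03-fold higher under KNO3, with 3 reads over the KCl group taken as the floor. The WT share under KNO3 was 4.82 times that of zmnrt1.1b (95% interval 3.097 to 7.81) and 14.8 times that of zmnlp3.1 (7.29 to 35.1). Reads were pooled over the libraries of a group, so these intervals also hold counting error only. They leave out the spread between libraries and are too narrow for a difference of genotypes. Zm00001d009860, also described as nitrate reductase [NAD(P)H], had 0 to 12 reads per library. No read was found for Zm00001d025718, whose listed domain is that of ribonuclease III, nor for Zm00001d039831, Zm00001d054051, Zm00001d046987 and the nitrite reductase entry Zm00001d032085, which allows up to 3 reads per library.

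**Figure D3:**
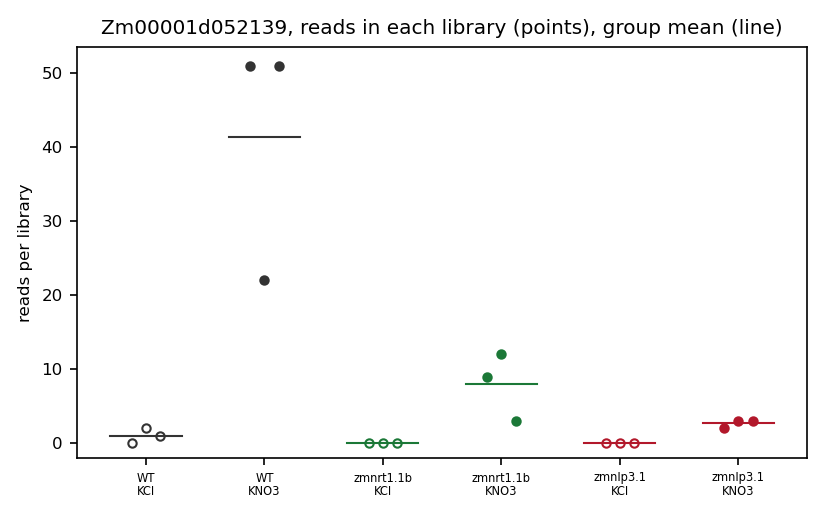
Reads of the nitrate reductase Zm00001d052139 in each library (points, open under KCl and filled under KNO3) with group means (lines). WT libraries under KNO3 have 22 to 51 reads, those of zmnrt1.1b 3 to 12 and those of zmnlp3.1 2 to 3, and no KCl library has more than 2.

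The genotypes were next compared within a treatment, where both mutants are set against the same WT libraries. Under KNO3 zmnrt1.1b differed from WT in 2 of 9 members, both lower (17.6% of all genes differed in either direction). This count lay near the share over all genes. Zm00001d049995 was lower, with a log2 difference of -1.33 (SE 0.23, limma adjusted p = 0.000898). Zm00001d018206 had a difference of -0.83 (SE 0.24, limma adjusted p = 0.0234), which lost the call with the replicate number as a block (-0.64) and without WT KNO3 replicate 3 (-0.71) or zmnrt1.1b KNO3 replicate 4 (-0.73) or 5 (-0.74). The other 4 responding members had differences of -0.50 for Zm00001d031769, -0.82 for Zm00001d018161 (limma adjusted p = 0.0903), -1.01 for gene_Zm00001d052164 (limma adjusted p = 0.0544) and -1.01 for gene_Zm00001d052165. The difference of gene_Zm00001d052164 passed with a pseudocount of 1 FPKM (-0.99), with voom on the recovered reads and when only the groups compared were fitted, and that of gene_Zm00001d052165 with a pseudocount of 1 FPKM (-0.72) and with voom (-1.08). Without zmnrt1.1b KNO3 replicate 2 the difference of Zm00001d031769 was -0.79 (limma adjusted p = 0.0805), and without both libraries that stood apart it had the same size and passed (limma adjusted p = 0.00772). The difference of gene_Zm00001d052164 also passed without any one of 3 zmnlp3.1 KCl libraries or zmnlp3.1 KNO3 replicate 2, at the same size, and that of Zm00001d018161 passed without zmnlp3.1 KCl replicate 4 (limma adjusted p = 0.00587), since these libraries enter the shared estimate of the spread. Without both libraries that stood apart, a setting chosen after seeing the data, 6 members differed, of which Zm00001d013211 was higher in zmnrt1.1b (0.48) and 5 were lower.

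In zmnlp3.1 under KNO3, 5 of 9 members differed from WT, all lower (31.5% of all genes differed). The differences were -2.77 for Zm00001d018206 (SE 0.24, limma adjusted p = 1.24e-06), -1.89 for Zm00001d049995, -1.86 for Zm00001d031769, -1.33 for Zm00001d018161 and -1.42 for gene_Zm00001d052164. They passed under each alternative run, including each left-out library. gene_Zm00001d052165 differed by -0.49 (95% interval -1.48 to 0.49), which did not pass. Zm00001d018206 in zmnlp3.1 thus reached 0.146 of the mean WT level under KNO3. Directly against zmnrt1.1b, 2 of 9 members, both nitrate reductases, were lower in zmnlp3.1 under KNO3 (15.4% of all genes differed), a count near that share. They had -1.94 for Zm00001d018206 (SE 0.24, limma adjusted p = 0.000116) and -1.36 for Zm00001d031769 (SE 0.29, limma adjusted p = 0.00604). The difference of Zm00001d049995 between the mutants was -0.56 (95% interval -1.04 to -0.08, limma adjusted p = 0.103), and without zmnrt1.1b KNO3 replicate 2 it was -0.30.

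Without NO3- fewer members differed from WT, but so did fewer of all tested genes. The shares were 3.92% against 17.6% under KNO3 for zmnrt1.1b, and 9.39% against 31.5% for zmnlp3.1. The KCl counts of members against WT lay near these shares, as did the KNO3 count for zmnrt1.1b. Between the mutants the same 2 members differed in either treatment. None of the 9 members differed between zmnrt1.1b and WT under KCl (3.92% of all genes differed), by limma or by voom on the recovered reads, and only Zm00001d013211 (0.34) was higher at an unadjusted p under 0.05. Between zmnlp3.1 and WT under KCl only Zm00001d018206 differed (9.39% of all genes), at -1.02 (SE 0.24, limma adjusted p = 0.0126), and against zmnrt1.1b only Zm00001d018206 and Zm00001d031769 (9.61% of all genes), at -0.93 and -1.08. These calls rest on few libraries. Without zmnlp3.1 KCl replicate 4 the 3 differences were -0.73, -0.63 and -0.67 and none passed. Without both libraries that stood apart the sizes were the same and all 3 passed (limma adjusted p = 0.0243, 0.0473 and 0.0398). The first was also lost without WT KCl replicate 3 (-0.87). Both differences from zmnrt1.1b were lost without zmnrt1.1b KCl replicate 2 (-0.89 and -1.05) or 3 (-0.90 and -1.04), and that of Zm00001d031769 without replicate 4 (-1.13). Without zmnlp3.1 KCl replicate 1, on the other hand, Zm00001d049995 (-0.76), Zm00001d031769 (-1.09) and Zm00001d018161 (-1.20) also passed against WT.

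Whether the response itself differed between genotypes was tested as an interaction. Responses of zmnlp3.1 and WT differed for 2 of 9 members (4.89% of all genes in either direction), both nitrate reductases with the smaller response in zmnlp3.1. The difference of responses was -1.75 for Zm00001d018206 (SE 0.33, limma adjusted p = 0.00817) and passed under each alternative run. It was -1.37 for Zm00001d049995 (SE 0.32, limma adjusted p = 0.0234), and the call was lost without WT KCl replicate 1 (-1.31), WT KNO3 replicate 3 (-1.24) or zmnlp3.1 KNO3 replicate 4 (-1.25). Values for the others were -1.04 for Zm00001d031769 (limma adjusted p = 0.163), -0.48 for Zm00001d018161 (95% interval -1.45 to 0.50), -0.75 for gene_Zm00001d052164 (-1.78 to 0.29) and -0.38 for gene_Zm00001d052165 (-1.77 to 1.02). These depended on the low zmnlp3.1 KCl replicate 4. Without it Zm00001d031769 (-1.44), Zm00001d018161 (-1.01) and gene_Zm00001d052164 (-1.31) passed as well, which gave 5 members, whereas gene_Zm00001d052165 (-0.80) did not. That library was singled out by the low values of these members. The smaller zmnlp3.1 responses without it follow from that choice, so the added calls are no separate support.

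No member passed for the responses of zmnrt1.1b and WT by limma (1.51% of all genes did), or by voom, with Zm00001d018206 (-0.74) and Zm00001d049995 lower and the entry on chromosome 2 (0.79) higher at an unadjusted p under 0.05. All 6 responding members had a smaller estimate in zmnrt1.1b, from -0.46 for Zm00001d018161 to -1.06 for Zm00001d049995 (limma adjusted p = 0.102). Without zmnrt1.1b KNO3 replicate 2 the latter was -1.32 and passed, and without both libraries that stood apart 3 members passed. Between the responses of zmnlp3.1 and zmnrt1.1b no member passed either (1.79% of all genes did), by limma or by voom, with Zm00001d018206 lower and gene_Zm00001d017025 (1.52) higher at an unadjusted p under 0.05. The largest difference among the 6 responding members was that of Zm00001d018206 at -1.01 (limma adjusted p = 0.152), which was -1.31 and passed without zmnlp3.1 KCl replicate 4.

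Ratios between members within a library are given next as a description. With 3 against 3 libraries none of 27 comparisons could pass, and the smallest adjusted p was 0.18 (exact permutation test). The FPKM of Zm00001d018206 over that of the nitrite reductase Zm00001d018161 was 0.239 to 0.304 in WT under KCl and 0.505 to 0.614 under KNO3. In zmnrt1.1b it went from 0.280 to 0.339 under KCl to 0.529 to 0.598 under KNO3, which overlapped WT. In zmnlp3.1 it was 0.175 to 0.326 under KCl and 0.196 to 0.216 under KNO3, so that both treatments overlapped and no KNO3 library reached the WT range. Summed over all entries, nitrate reductase amounted to 0.679 to 0.815 of nitrite reductase FPKM in WT, against 0.652 to 0.745 in zmnrt1.1b and 0.326 to 0.361 for zmnlp3.1 under KNO3. An exact two-sided permutation test of 3 against 3 libraries cannot go below 0.10, and the difference of the log2 ratio of Zm00001d018206 to Zm00001d018161 between zmnlp3.1 and WT under KNO3 (-1.45) had this smallest p of 0.10 (0.18 after adjustment over 27 such ratios).

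Within the nitrate reductases the share of Zm00001d018206 in the summed FPKM rose from 44.8 to 52.1% under KCl to 70.5 to 71.4% under KNO3 in the WT libraries, and from 47.3 to 51.0% to 73.3 to 76.6% in zmnrt1.1b. The zmnlp3.1 libraries went from 37.9 to 45.2% to 54.9 to 56.5%. The mutants lay on opposite sides of WT under KNO3 in the ratio of Zm00001d018206 to Zm00001d049995, which was 2.92 to 2.98 in WT, against 3.81 to 4.55 in zmnrt1.1b and 1.54 to 1.64 for zmnlp3.1, with no overlap. For this ratio too the smallest possible exact permutation p of 0.10 was reached for each pair of genotypes under KNO3 (0.18 adjusted). Under KCl the ratio was 1.27 to 1.78 in WT, 1.58 to 1.88 in zmnrt1.1b and 0.964 to 1.36 in zmnlp3.1. There each mutant overlapped WT, but the mutants did not overlap each other (exact permutation p = 0.10, 0.18 adjusted). Zm00001d018161 made up 92.2 to 95.4% of the summed nitrite reductase FPKM under KNO3 in all genotypes.

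**Figure D4:**
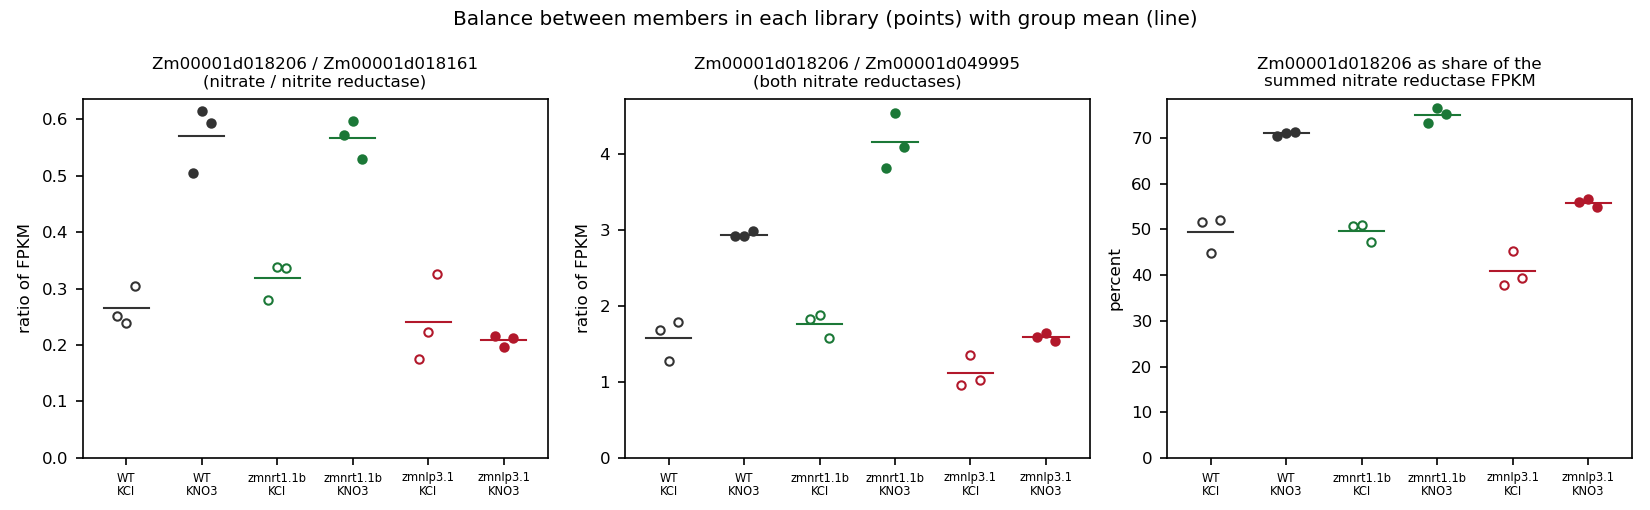
Ratio of the FPKM of Zm00001d018206 to that of the nitrite reductase Zm00001d018161 (left) and of the nitrate reductase Zm00001d049995 (middle), and share of Zm00001d018206 in the summed nitrate reductase FPKM (right, percent), by library (points, open under KCl and filled under KNO3) with group means (lines). Under KNO3 the left ratio is 0.196 to 0.216 in zmnlp3.1 against 0.505 to 0.614 in WT, and the middle ratio is above WT in zmnrt1.1b and below it in zmnlp3.1.

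The genes that surround these enzymes in the pathway were counted from lists set by description. For lists this short, none falling or none passing is close to the share over all tested genes. Nitrate entry took in the high-affinity transporters with their activating proteins and the NRT1/PTR FAMILY 6.3 group. Of its 10 tested genes 4 rose in WT (2.75% of all tested genes) and none fell (2.88%), with a median of 0.62. They were the high-affinity transporter gene_Zm00001d054060 (262 ± 40.6 to 1003 ± 186 FPKM, SD, n = 3 each), which imports NO3-, Zm00001d029932 of FAMILY 6.3 (62.5 ± 9.29 to 183 ± 14.3 FPKM), the high-affinity transporter Zm00001d044504 and the activating protein Zm00001d017095, whose products are needed at the plasma membrane by the transporters. Only Zm00001d029932 and Zm00001d044504 passed without each WT library in turn. Without any one of the 6 WT libraries gene_Zm00001d054060 had 1.80 to 2.07 and Zm00001d017095 1.09 to 1.19, and neither passed. By limma no gene of this list rose past both thresholds in zmnrt1.1b, where 1 fell (2.62% of all genes), or in zmnlp3.1. At an unadjusted p under 0.05, 4 and 0 were higher, and by voom 1 and 0 rose. By the interaction test 0 of the 10 responded differently from WT in zmnrt1.1b or in zmnlp3.1 (1.51% and 4.89% of all genes). These missed calls therefore do not show a lost response. In zmnrt1.1b gene_Zm00001d054060 went from 218 ± 19.0 to 744 ± 395 FPKM (SD, n = 3). Zm00001d029932 already stood at 140.0 ± 13.1 FPKM under KCl in zmnrt1.1b (SD, n = 3).

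Nitrate reductase needs a molybdenum cofactor, which is made from GTP and molybdate. Of 23 tested genes whose description mentions molybdopterin, molybdenum cofactor or molybdate, 2 rose in WT, against 2.75% of all tested genes (median 0.08). The list also holds 7 genes described as NADH dehydrogenase, FAD synthase, sulfite oxidase or indole-3-acetaldehyde oxidase, none of which rose, and by protein name alone 1 of 15 rose. Those that rose were Zm00001d016866, described as GTP 3',8-cyclase and known for the first step of cofactor synthesis (31.0 ± 4.56 to 96.3 ± 10.5 FPKM, 1.64 on the log2 scale), and the molybdate transporter Zm00001d044068 (1.14). By limma no gene of this list passed both thresholds in a mutant, with 4 higher and 3 lower in each at an unadjusted p under 0.05, and by voom 1 rose in zmnlp3.1. The difference of responses between zmnlp3.1 and WT was -0.96 for Zm00001d016866 (limma adjusted p = 0.0211), and the call was lost without WT KCl replicate 1 (-0.84), WT KNO3 replicate 3 (-0.87) or zmnlp3.1 KNO3 replicate 4 (-0.88). The molybdate-anion transporter gene_Zm00001d032435 went the other way, with a greater response in zmnlp3.1 than in WT (0.95, limma adjusted p = 0.00888). None of 13 tested genes listed as other molybdenum enzymes, 2 of which are GLOX aldehyde oxidases that are not known to carry molybdenum, rose or fell in WT by limma or by voom (median -0.04), with 1 higher and 1 lower at an unadjusted p under 0.05. For siroheme, the cofactor of nitrite reductase, and for sulfite reductase, 2 of 5 tested genes rose in WT (2.75% of all genes, median 0.65). Both were uroporphyrinogen III methyltransferases that commit the pathway to siroheme. Zm00001d011428 rose by 2.47 in WT, and by 1.74 in zmnlp3.1, and Zm00001d044138 by 2.57, 1.79 and 1.81 in WT, zmnrt1.1b and zmnlp3.1. Zm00001d011428 also passed in zmnrt1.1b, where it went from 11.2 ± 1.09 to 27.8 ± 3.07 FPKM.

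The plastid reductant list holds the ferredoxins, ferredoxin--NADP reductases and NADPH-forming dehydrogenases. Of its 26 tested genes 5 rose in WT (2.75% of all genes) and none fell (2.88%), with a median of 0.06. The 4 largest increases were those of the ferredoxins Zm00001d010136 (20.7 ± 1.28 to 316 ± 43.8 FPKM, 3.92 on the log2 scale) and Zm00001d038291 (2.43), the root ferredoxin--NADP reductase gene_Zm00001d034345 (207 ± 30.0 to 1703 ± 148 FPKM, 3.05) and the glucose-6-phosphate dehydrogenase gene_Zm00001d025015 (2.68). All 4 rose in both mutants as well. In zmnrt1.1b and zmnlp3.1 5 and 4 genes of the list rose (2.03% and 1.74% of all genes). Only gene_Zm00001d025015 had a response that differed between zmnlp3.1 and WT (-1.53, limma adjusted p = 0.0228), a call lost without WT KCl replicate 1 (-1.47), WT KNO3 replicate 3 (-1.44), zmnlp3.1 KCl replicate 3 (-1.41) or zmnlp3.1 KNO3 replicate 4 (-1.34). Downstream, 4 of 21 tested genes of the ammonium assimilation list rose in WT (2.75% of all genes) and none fell (2.88%), with a median of 0.10. The list includes 4 folylpolyglutamate synthases, which serve folate metabolism and of which 0 rose. The 4 that rose were the plastid glutamine synthetase Zm00001d026501 (2.28), the ferredoxin-dependent glutamate synthase Zm00001d022388 (2.14), an asparagine synthetase, Zm00001d047736 (1.46), and the NADH glutamate synthase Zm00001d011610 (1.37). Zm00001d047736 did not pass without WT KCl replicate 2 (1.39) or 3 (1.41) or WT KNO3 replicate 1 (1.45), 3 (1.49) or 4 (1.44), and Zm00001d011610 not without WT KCl replicate 1 (1.18) or WT KNO3 replicate 3 (1.27). A second asparagine synthetase, gene_Zm00001d028750, had responses that differed between zmnlp3.1 and WT (1.69, limma adjusted p = 0.0228). Its mean fell from 14.2 ± 2.97 to 10.4 ± 1.37 FPKM in WT and rose from 1.86 ± 0.731 to 4.46 ± 1.39 FPKM in zmnlp3.1 (SD, n = 3). The call was lost without WT KCl replicate 3 (1.52) or WT KNO3 replicate 3 (1.66). The 14-3-3 proteins, which bind phosphorylated nitrate reductase and inactivate it, had 0 of 16 tested genes (1 of them, Zm00001d050903, is described as an F-box protein) past both thresholds in any genotype by limma or by voom, with 1 higher and 4 lower at an unadjusted p under 0.05 in WT. One of them, gene_Zm00001d032231, had a response that differed between zmnlp3.1 and WT (0.46, limma adjusted p = 0.0443), and this call was lost in 13 of 18 fits without 1 library. Its mean went from 90.6 to 78.4 FPKM in WT and from 87.1 to 103.7 FPKM in zmnlp3.1.

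**Figure D5:**
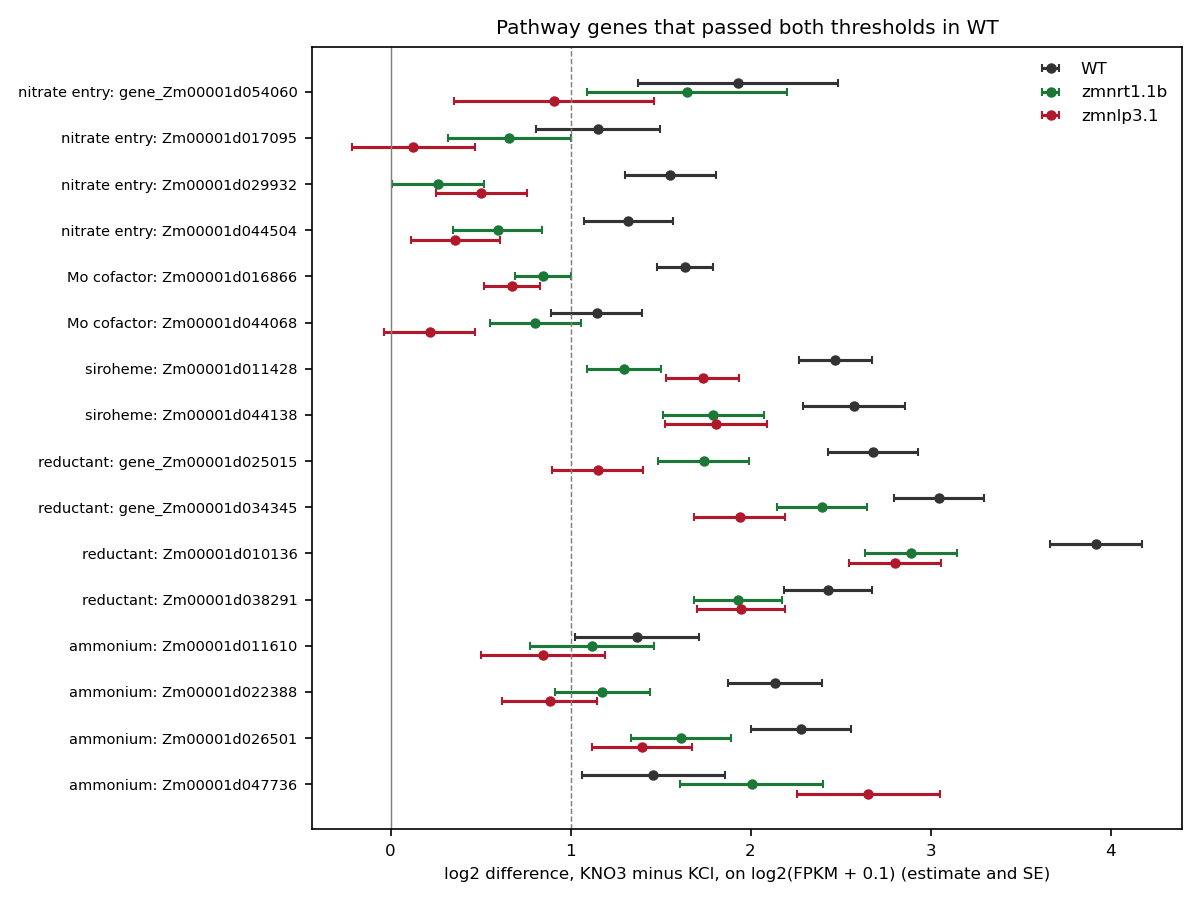
NO3- response (log2 difference of KNO3 minus KCl on log2(FPKM + 0.1), estimate and SE) in WT, zmnrt1.1b and zmnlp3.1 of the pathway genes that passed both thresholds in WT and were named by the rule, at most 4 a list. The dashed line marks the fold threshold of 1. The WT estimate is the largest of the 3 genotypes for each gene shown except the asparagine synthetase Zm00001d047736, which has 1.46 in WT and 2.66 in zmnlp3.1.

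Likeness of pattern over the 18 libraries was measured by Pearson's r among tested genes whose mean was 5 FPKM or more, as a description in which the NO3- treatment is shared by all points. The closest genes to Zm00001d018206 were gene_Zm00001d042443, a BTB and TAZ domain protein (r = 0.988), the zinc finger gene Zm00001d035609 (r = 0.987) and Zm00001d002071, which has no description (r = 0.979). Zm00001d049995 was closest to Zm00001d002071 (r = 0.983), the ferredoxin Zm00001d010136 (r = 0.982) and Zm00001d021653, a plastid glucose-6-phosphate translocator (r = 0.981). For the nitrite reductase Zm00001d018161 they were the ferredoxin Zm00001d038291, the root ferredoxin--NADP reductase gene_Zm00001d034345 (r = 0.989 each) and the other nitrite reductase gene_Zm00001d052164 (r = 0.987). Those of gene_Zm00001d052164 were Zm00001d033543, without a description (r = 0.989), Zm00001d018161 and the siroheme gene Zm00001d044138 (r = 0.984). Zm00001d031769 had a different set with lower values, an inositol polyphosphate phosphatase (Zm00001d031554, r = 0.966), the ethylene-responsive factor Zm00001d027928 (r = 0.965) and the ethylene receptor Zm00001d025050 (r = 0.962). Closest to gene_Zm00001d052165 were Zm00001d002669 (r = 0.955), Zm00001d044138 and Zm00001d006911 (r = 0.948). Among the 6 responding members r lay between 0.672 and 0.987. The members without a response had lower values, at most 0.899 for the entry on chromosome 2, 0.854 for gene_Zm00001d017025 and 0.836 for Zm00001d013211.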

How the data were processed

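Root mRNA selected by poly-T was sequenced with 150 bp paired-end reads. Per the study's methods the authors aligned them to B73 RefGen_v4 with HISAT2 (v2.0.5), and the submitters' processing notes also name fastp and StringTie (v1.3.3b). The counter, the strand setting and the scaling between libraries are not given in the sources used here. The deposited unit is FPKM, computed by the authors, and all 18 columns of values were used. FPKM times gene length gave whole multiples of 1 step (within 0.01) for all values in each library, from which reads were recovered. The denominator was 0.925 to 1.109 times the recovered total.

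Since FPKM are not counts, log2(FPKM + 0.1) of genes with at least 1 FPKM in at least 3 of 18 libraries was fitted with limma (v3.58.1, R v4.3.3), with a variance trend, in 1 model of 6 groups (12 residual degrees of freedom). P-values were two-sided, with Benjamini-Hochberg adjustment over all genes tested. Responses were called at an adjusted p under 0.05 and an absolute log2 difference over 1, other contrasts at an adjusted p under 0.05. Ratios were compared by exact permutation. The procedure was tested on simulated data with known changes. Of 100 changes of 1.5 on the log2 scale, 71 were called as WT responses and 59 as differences of responses between zmnlp3.1 and WT. Of 100 changes of 3, 91 and 86 were called. Python (v3.11.15), pandas (v2.3.3) and matplotlib (v3.10.9) served for tables and plots.

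The members and lists were chosen with earlier results of these data known. Every member was named, with the 3 most alike genes of each tested member. List genes were named where they passed in WT (at most 4 a list) or had a differing response. The lists were first matched on the protein name alone and then, as their rule is worded, on the whole description, and the second reading was kept after both had been seen. "Starts with" stayed on the protein name. The change raised the molybdenum cofactor list from 16 genes with 1 rising in WT to 26 with 2, the 14-3-3 list from 30 to 31 genes and the leaf markers from 32 to 38, and left the others as they were. Of the molybdenum cofactor list 6 genes also stand in that of other molybdenum enzymes. A promoter motif search was planned and not run, since no promoter sequence was used here. Alternatives were other pseudocounts, filters, scalings and models, voom on the recovered reads, a replicate block, each library left out and, chosen after seeing the data, the fit without both libraries that stood apart.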

Additional observations from a re-analysis of the deposited data

Results flagged for a closer look

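The NO3- response differed between zmnlp3.1 and WT by the interaction test in 2 members and 5 pathway genes. The nitrate reductases Zm00001d018206 and Zm00001d049995 had differences of -1.75 and -1.37. Zm00001d016866 of the molybdenum cofactor list and the glucose-6-phosphate dehydrogenase gene_Zm00001d025015 had -0.96 and -1.53. The molybdate-anion transporter gene_Zm00001d032435 had 0.95, the asparagine synthetase gene_Zm00001d028750 1.69 and the 14-3-3 gene gene_Zm00001d032231 0.46. For gene_Zm00001d028750 and gene_Zm00001d032231 the mean FPKM fell in WT and rose in zmnlp3.1.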

How the results depend on the processing

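All 108 log2 differences of the 9 tested members in 12 contrasts and 21 of list genes were recomputed in 8 alternatives with all libraries, in 18 fits without 1 library and without both libraries that stood apart (chosen after seeing the data). Of these 129, 97 kept their call and 109 their direction throughout. The 20 that changed direction had not passed in the main model, and none passed where it turned.

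When only the groups compared were fitted, 0 members in place of 1 differed between zmnlp3.1 and WT under KCl, and 0 in place of 2 between the mutants. For zmnrt1.1b against WT under KNO3 the count was 4 with a pseudocount of 1 FPKM and 4 with voom, in place of 2. Without 1 library the counts ranged from 0 to 4 for zmnlp3.1 against WT under KCl, from 0 to 2 for the mutants under KCl, from 1 to 4 for zmnrt1.1b against WT under KNO3, from 1 to 5 for the response of zmnlp3.1 against WT, and from 0 to 1 for both other differences of responses. Without both libraries they were 6 for zmnrt1.1b against WT under KNO3, and 3, 5 and 1 for the responses of zmnrt1.1b and WT, zmnlp3.1 and WT, and both mutants. In the list of nitrate entry 2 genes in place of 4 rose in WT with no minimum FPKM or without any 1 WT library, and in that of ammonium assimilation 2 in place of 4 without WT KNO3 replicate 3. With the replicate number as a block 5 genes rose in the former list and 6 in the latter. The cause was not tested.

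The replicate number as a block gave 1 member for zmnrt1.1b against WT under KNO3 and changed 3 calls, of Zm00001d018206 there (-0.64), of Zm00001d031769 in zmnrt1.1b (1.22, now passed) and of gene_Zm00001d032231 (0.45). Deviations of libraries with the same number correlated at -0.07 to 0.27 across genes, so they were not taken as pairs. The block turned 5 directions, to 0.061 for Zm00001d013211 between the mutants under KNO3, 0.023 for Zm00001d018206 and 0.198 for gene_Zm00001d052164 in zmnrt1.1b against WT under KCl, and, for gene_Zm00001d052165, 0.167 in zmnlp3.1 against WT under KCl and -0.057 between the responses of the mutants.

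Without both libraries 8 directions turned. Zm00001d013211 had 0.103 for the zmnrt1.1b response, 0.144 against that of WT and -0.13 between the mutants' responses. Zm00001d018161 had 0.047 between the mutants under KCl, gene_Zm00001d052164 -0.226 between their responses and gene_Zm00001d052165 0.31 for zmnlp3.1 against WT under KCl. The entry on chromosome 2 had -0.224 for the zmnrt1.1b response and 0.136 between the mutants under KNO3.

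Fits without 1 library spanned 0 as follows. For Zm00001d013211 they gave -0.10 to 0.034 for the zmnlp3.1 response, -0.20 to 0.103 for that of zmnrt1.1b, -0.060 to 0.074 and -0.16 to 0.144 for these against WT, -0.114 to 0.19 between the mutants' responses and -0.256 to 0.049 between the mutants under KNO3. Between the responses of the mutants they gave -0.549 to 0.333 for Zm00001d018161, -0.691 to 0.0065 for Zm00001d031769, -0.309 to 0.541 for gene_Zm00001d052164 and -0.163 to 0.67 for gene_Zm00001d052165. Under KCl they gave -0.835 to 0.047 for Zm00001d018161 between the mutants, -0.245 to 0.056 for Zm00001d018206 and -0.123 to 0.14 for gene_Zm00001d052164 in zmnrt1.1b against WT, and, for gene_Zm00001d052165, -0.486 to 0.31 in zmnlp3.1 against WT, -0.149 to 0.683 between the mutants and -0.725 to 0.0301 in zmnrt1.1b against WT. gene_Zm00001d017025 had -0.60 to 0.123 for the zmnrt1.1b response against WT. The entry on chromosome 2 had -0.224 to 0.351 for the zmnrt1.1b response, -0.016 to 0.317 for zmnlp3.1 against WT under KCl and -0.439 to 0.136 between the mutants under KNO3.

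As a share of recovered reads, not divided by length, Zm00001d018206 held 69.4% of nitrate reductase in WT and 53.1% in zmnlp3.1 under KNO3. Depth limits the members under 1 FPKM, and 3 libraries a group limit the rest, so that a missed threshold does not show equal responses.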
